A study of Mus musculus with 36 samples.

Results

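The 4 h response of mouse fibroblast-like chondrocytes to interleukin-1β (IL-1β) was read from 6 of the 36 RNA-seq libraries of the series, 3 from cells exposed to the cytokine for 4 h and 3 from cells at 0 h. The members were taken by column name from the raw count table, control_4hr replicates 1 to 3 against control_0hr replicates 1 to 3. Both groups carried a non-targeting siRNA pool and are called NT here, the name used in the study. The whole series compares NT cells with cells given IFT88 siRNA (IFT88siRNA) at 0, 1, 2, 4, 8 and 24 h of IL-1β, with 3 libraries for each condition. IFT88 is a protein of intraflagellar transport, the machinery that builds the primary cilium, and the study asked whether its loss alters inflammatory signalling. The 4 h cells received IL-1β at 10 ng/ml. The 0 h cells are labelled as having no IL-1β, and the treatment text of the labels names a vehicle. All cells were wild type and of 1 mouse chondrocyte line that the labels call fibroblastic, grown in low-glucose DMEM with serum and brought to confluence after transfection. The line was conditionally immortalised, and its propagation required interferon-γ and a permissive temperature that were withdrawn before the experiments. The labels give 50 nM siRNA, where the study's methods name a lower concentration, and they do not say whether the 3 libraries of a group came from separate cultures, so the p-values measure only the spread between these libraries, which may be technical.

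IL-1β binds IL-1R1, which pairs with the accessory protein IL-1RAP and recruits MyD88 and IRAK kinases. TRAF6 and TAK1 then activate the IκB kinases and the MAP kinases, so that NFκB and AP-1 factors enter the nucleus or become active there. In cartilage the cytokine is known for inducing chemokines, prostaglandin and nitric oxide synthesis and matrix-degrading proteases, and for lowering the expression of cartilage matrix genes. Several NFκB targets, among them IκBα and A20, feed back on the pathway.

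The NT libraries held between 20223532 and 21906468 counted fragments at 0 h and between 19599461 and 23808130 at 4 h. Log-scale values of replicate libraries correlated across genes at 0.997 or more within a group, against 0.898 to 0.906 between groups, and no pair of replicates agreed within counting noise. The chondrocyte identity in the labels was only in part visible. Fibroblast markers were abundant, with summed levels of 4837 to 4975 TPM (a level scaled for transcript length and library size) at 0 h and 4737 to 4952 TPM at 4 h, and all 10 of them were tested. Of 10 chondrocyte markers 9 were found by name among the counted genes. Of these, 6 had enough reads to test, with summed levels of 42.2 to 44.7 TPM at 0 h and 47.5 to 48.3 TPM at 4 h. Acan, the cartilage proteoglycan aggrecan, had 10, 9 and 8 counts at 0 h and 4, 4 and 2 counts at 4 h, too few to test. Leukocyte, endothelial, epithelial and adipocyte markers had low summed levels. Of 16 leukocyte markers 5 were tested, and 2 of these were called higher at 4 h. The 5 summed to 14 to 17.9 TPM at 0 h and 12.9 to 15.6 TPM at 4 h. Tyrobp, Cd3e and Nkg7 had no count in the 6 libraries. Tie1, Cldn5, Adipoq and Plin1 were likewise without a count. The endothelial list went from 7.37–7.97 TPM at 0 h to 3.6–4.8 TPM at 4 h. The epithelial list went from 2.16–2.89 to 5.39–8.75 TPM, with 2 of 3 tested members called higher and 1 lower. The adipocyte list went from 7.24–7.83 to 14.2–16.5 TPM. The osteoblast list went from 1400–1468 TPM to 905–1014 TPM, nearly all of it Spp1, osteopontin. Beside these, the share of fragments in mitochondrial genes was 1.10–1.22% at 0 h and 0.935–1.06% at 4 h, that in ribosomal protein genes 1.54–1.62% and 1.15–1.20%, and the part of either in the results was not tested. Because these are bulk libraries, a lower level can come from fewer cells of a type or from less RNA per cell, and these cannot be told apart.

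At 4 h a large part of the measured transcriptome differed from 0 h. Of 15082 genes tested, 2477 (16.4%) were called higher and 1971 (13.1%) lower, at a Benjamini-Hochberg adjusted p under 0.05 in edgeR's quasi-likelihood test and a fold change over 1.5. Changes upward were the larger: 300 genes were over 8-fold higher and 12 over 8-fold lower, and the median log2 fold change was 1.21 among higher genes and −0.90 among lower ones. The libraries of the 2 groups did not overlap for 4352 of the 4448 called genes, against 10377 (68.8%) of all tested genes. Genes called higher took 14.6% to 14.9% of the fragments at 0 h and 30.8% to 31.3% at 4 h, while genes called lower went from 6.94–6.97% to 3.10–3.14%. The overlap and these shares were read from the libraries that made the calls, so they are no separate support for them. The balance of calls depended on the scaling. With edgeR's test on the same genes, the share of higher genes among calls was 55.7% with trimmed-mean scaling, 56.9% with DESeq2's size factors, 43.7% with upper-quartile scaling and 30.2% when libraries were scaled by their totals alone. The median tested gene stood at −0.02 on the log2 scale with trimmed-mean scaling, at −0.15 with upper-quartile scaling and at −0.31 with totals alone. In alternatives that changed several steps together, the share was 60.3% with DESeq2's own test and filter and 37.6% with limma on the deposited TPM, where the median gene stood at −0.24. Protein-coding genes made up most of the response, with 2145 higher and 1674 lower of 12795 tested. Of 350 lincRNAs 63 were higher and 70 lower, and of 392 antisense transcripts 73 were higher and 69 lower.

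The genes that rose most had few or no reads before the cytokine (plot of the 24 genes with the largest changes, taken from called genes with a mean of at least 50 counts and libraries that did not overlap). Nos2, the inducible nitric oxide synthase (ENSMUSG00000020826, chromosome 11, 78920787 to 78960254 on GRCm38), stood at 0.0425, 0 and 0 CPM at 0 h and 329.6, 327 and 395 CPM at 4 h, where CPM is the count scaled to a common library size. It had 1 count over the 3 libraries at 0 h and 20208 at 4 h, a ratio of 24500 with an exact 95% interval of 4400 to 968000 that covers counting error only. Cxcl5, a ligand of the neutrophil receptor CXCR2, measured 0.383, 0.374 and 0.356 CPM at 0 h and 638, 692 and 649 CPM at 4 h. Its log2 fold change was 10.77 ± 0.088 (SE), with an adjusted p of 1.52e-39 in edgeR. Saa3, an acute-phase serum amyloid made outside the liver, went from 0.212, 0.0832 and 0.0445 CPM at 0 h to 154, 163 and 188 CPM at 4 h, a log2 change of 10.45 ± 0.14. Il6 (ENSMUSG00000025746, chromosome 5, 30013114 to 30019981), the cytokine interleukin-6, measured 0.255, 0.249 and 0.178 CPM at 0 h and 77.5, 84.7 and 83.2 CPM at 4 h, and its log2 fold change was 8.45 ± 0.12. In each of these genes the lowest 4 h library lay far above the highest 0 h library. Acod1, which makes the macrophage metabolite itaconate, rose by 9.11 ± 0.23 on the log2 scale from 4 counts in all at 0 h, and Hcar2, a hydroxycarboxylic acid receptor, rose by 8.50 ± 0.21, also from 4 counts. Lcn2, the iron-siderophore binding lipocalin-2, rose by 8.36 ± 0.10, and Ch25h, which makes 25-hydroxycholesterol, by 8.0 ± 0.12. Serpina3f, a serine protease inhibitor, and Ccl20, a chemokine for CCR6-bearing lymphocytes, had log2 changes of 9.07 ± 0.14 and 8.11 ± 0.13, and the chemokines Cxcl1 and Cxcl2 completed the 12.

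**Figure D1:**
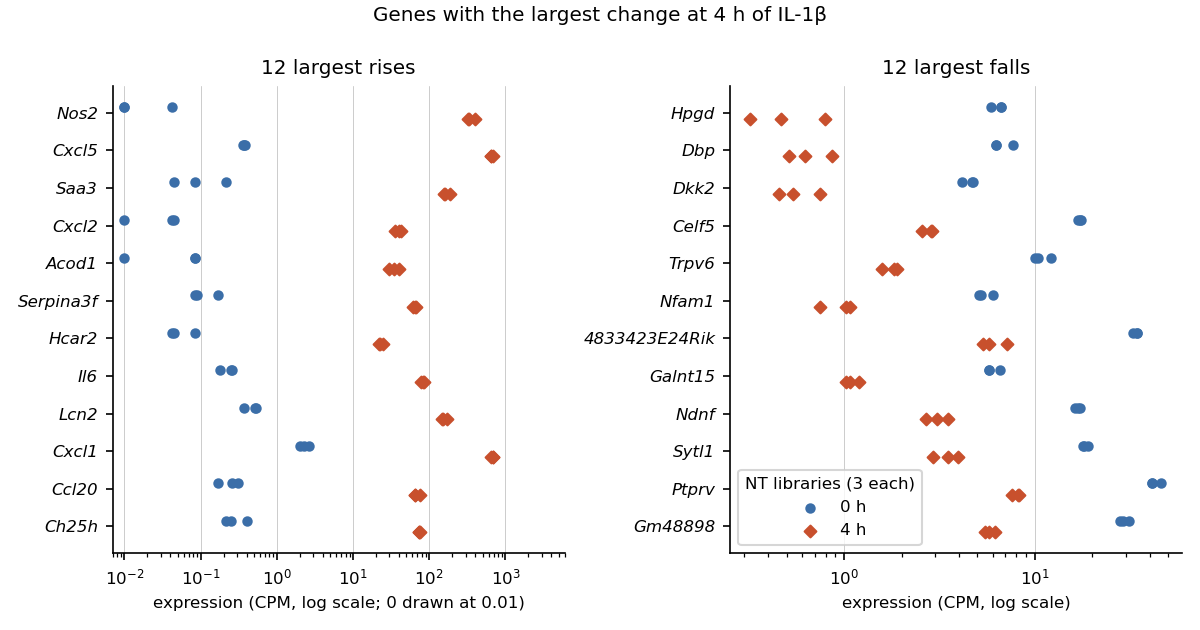
Each library's level (CPM, log axis) for the 12 largest rises and 12 largest falls, with circles for the 3 NT libraries at 0 h and diamonds for the 3 at 4 h, and a level of 0 drawn at 0.01. The rising genes start below 3 CPM and reach 20 CPM or more, and the falling genes start between 4 and 50 CPM and end below 10 CPM.

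Falls were smaller and began from modest levels. Hpgd, the 15-hydroxyprostaglandin dehydrogenase that inactivates prostaglandins (ENSMUSG00000031613, chromosome 8, 56294585 to 56321043), measured 6.63, 5.91 and 6.63 CPM at 0 h and 0.793, 0.464 and 0.323 CPM at 4 h. Its log2 fold change of −3.60 ± 0.21 was the largest fall by this rule. Dbp, a clock-controlled transcription factor, measured 7.69, 6.28 and 6.23 CPM at 0 h and 0.624, 0.511 and 0.860 CPM at 4 h, a change of −3.34 ± 0.20, and Dkk2, a secreted WNT antagonist, changed by −2.93 ± 0.22. Neither gene's 4 h libraries reached its 0 h libraries. Dbp overlaps Sphk2 on the other strand, and reads were counted without strand. Celf5, an RNA-binding protein, Trpv6, a calcium channel, and Ndnf, a secreted neurotrophic factor, changed by −2.63 ± 0.11, −2.60 ± 0.14 and −2.44 ± 0.11. Nfam1, 4833423E24Rik, Galnt15, Sytl1, Ptprv and Gm48898 made up the rest, with log2 changes between −2.53 and −2.34.

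On the length-scaled TPM values, the largest gain among called genes was that of Cxcl10, a chemokine for CXCR3-bearing T cells. It rose from 93.1 ± 9.43 TPM at 0 h to 6342 ± 126 TPM at 4 h (mean ± SD, n = 3), with 46, 45.2 and 39.2 CPM at 0 h and 3532, 3439 and 3584 CPM at 4 h. Cxcl10 lies within Art3 on the other strand, a gene of far lower count. Ccl2, which recruits monocytes, went from 21 ± 3.44 to 2584 ± 146 TPM and Ptx3, the secreted pattern-recognition protein pentraxin 3, from 242 ± 8.27 to 1620.0 ± 4.79 TPM. Mt2, a metal-binding metallothionein, went from 370.3 ± 7.74 to 3733 ± 3.08 TPM, Fth1, the ferritin heavy chain that stores iron, from 2522 ± 26.6 to 4754 ± 202 TPM, and the actin gene Acta2 from 1502 ± 27.2 to 3800.0 ± 190.2 TPM. Ptx3 overlaps Veph1 on the other strand. The largest TPM losses were those of Tubb4b, a β-tubulin, from 967 ± 6.82 to 464 ± 5.78 TPM, Arhgap36, a regulator of protein kinase A and Hedgehog signalling, from 921 ± 17.2 to 479.6 ± 16.1 TPM, and Ccng1, the p53 target cyclin G1, from 624 ± 9.58 to 242 ± 8.53 TPM. Ccnd1, the G1 cyclin D1, fell from 233 ± 6.51 to 71.1 ± 1.45 TPM and Scd2, a stearoyl-CoA desaturase, from 252 ± 7.28 to 60.1 ± 3.78 TPM.

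Chemokine genes rose together. Of 11 CXC chemokines tested 9 were called higher, with a list median log2 change of 6.78 against −0.02 over all tested genes, and their summed level went from 118–136 to 8785–9087 TPM. Cxcl1, a ligand of CXCR2, measured 2.29, 2.62 and 2.0 CPM at 0 h and 638, 696 and 689.6 CPM at 4 h, a log2 change of 8.19 ± 0.072. Cxcl2, its near relative, had 2 counts in all at 0 h and 2274 at 4 h, a ratio of 1380 with an exact 95% counting interval of 381 to 11400. Cxcl10 had a log2 change of 6.34 ± 0.055. On chromosome 5, between 90759360 and 90905938, lie 6 tested genes of the family, of which Cxcl1, Cxcl2, Cxcl3, Cxcl5 and Ppbp were higher and Cxcl15 was not called. Of 12 CC chemokines and fractalkine 9 were higher, with a median of 3.54 and a summed level of 533–564 TPM at 0 h and 6275–6766 TPM at 4 h. Ccl2 measured 6.42, 8.36 and 6.45 CPM at 0 h and 962, 1007 and 1073 CPM at 4 h. Ccl7, a neighbouring monocyte chemokine, rose by 7.09 ± 0.069, and Ccl5, which attracts T cells and was already expressed at 0 h, rose by 2.85 ± 0.062. The remaining members were not called.

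Promoter sequence is shown for 5 of the induced genes because their starts carry, in the letters alone, the elements that NFκB, AP-1 and interferon-regulatory factors are known to bind. Each line gives the 250 bases before the RefSeq start (GRCm38.p6), 5′ to 3′ on the gene's strand, at chr5:90890995-90891244 (+) for Cxcl1, chr5:92348890-92349139 (−) for Cxcl10, chr5:30012864-30013113 (+) for Il6, chr19:34640639-34640888 (+) for Ifit1 and chr12:55492648-55492897 (−) for Nfkbia. Capitals mark matches on either strand to a κB element, to the AP-1 element TGANTCA or to GAAANNGAAA, the core of the interferon-stimulated response element (ISRE), where N is any base.
Cxcl1: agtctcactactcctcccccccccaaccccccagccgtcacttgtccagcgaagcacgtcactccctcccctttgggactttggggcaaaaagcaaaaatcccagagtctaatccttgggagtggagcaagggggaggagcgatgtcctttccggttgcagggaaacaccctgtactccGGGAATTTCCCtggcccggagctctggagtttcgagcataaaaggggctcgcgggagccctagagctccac
Cxcl10: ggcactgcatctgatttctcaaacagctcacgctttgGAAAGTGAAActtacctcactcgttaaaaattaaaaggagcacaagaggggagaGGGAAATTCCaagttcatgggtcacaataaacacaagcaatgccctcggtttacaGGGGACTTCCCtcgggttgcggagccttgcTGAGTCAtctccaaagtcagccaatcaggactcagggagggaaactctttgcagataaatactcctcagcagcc
Il6: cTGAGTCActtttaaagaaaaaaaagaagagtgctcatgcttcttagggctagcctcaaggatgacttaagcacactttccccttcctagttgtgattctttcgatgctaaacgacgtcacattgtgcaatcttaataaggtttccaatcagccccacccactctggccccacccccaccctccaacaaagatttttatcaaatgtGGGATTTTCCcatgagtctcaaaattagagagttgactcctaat
Ifit1: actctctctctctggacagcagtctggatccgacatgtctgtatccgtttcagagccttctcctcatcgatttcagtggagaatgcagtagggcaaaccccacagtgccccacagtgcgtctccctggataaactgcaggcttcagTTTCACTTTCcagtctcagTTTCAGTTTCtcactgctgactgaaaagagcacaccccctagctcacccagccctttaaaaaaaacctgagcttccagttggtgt
Nfkbia: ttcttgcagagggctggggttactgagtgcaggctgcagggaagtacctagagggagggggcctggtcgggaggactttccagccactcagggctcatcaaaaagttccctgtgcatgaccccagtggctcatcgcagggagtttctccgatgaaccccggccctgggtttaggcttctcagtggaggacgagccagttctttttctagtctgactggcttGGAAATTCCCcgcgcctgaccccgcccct
In Cxcl1 and Nfkbia the capitals are κB matches that begin 71 and 29 bases before the start. In Il6 they are an AP-1 match at 249 bases and a κB match at 44 bases before it. Ifit1 carries a pair of ISRE matches, at 104 and 85 bases, and no other match. Cxcl10 carries all 3 kinds: an ISRE match at 213 bases, κB matches at 159 and 104 bases (the latter overlapping a further match shifted by a base) and an AP-1 match at 74 bases before the start. Over the 8366 tested genes with a RefSeq promoter of a single start, κB matches stood in 10.3% of the 300-base windows (250 before to 50 after the start), AP-1 matches in 4.81% and ISRE matches in 3.25%. Among the 1319 such genes called higher the shares were 14.8%, 7.81% and 8.26%, among the 161 over 8-fold higher 19.9%, 20.5% and 18%, and among the 1130 called lower 9.20%, 4.87% and 1.86%. Of 30 interferon-stimulated genes with such a promoter 20 held an ISRE match, of 15 NFκB inhibitors 7 held a κB match, and of 15 cholesterol synthesis genes 2 did. These matches describe the letters in the window and not binding.

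Cytokine genes rose in 19 of 26 tested, with a list median of 1.91. The colony-stimulating factor Csf3, which drives neutrophil production, measured 0.170, 0.0416 and 0.222 CPM at 0 h and 13.9, 16.5 and 18.3 CPM at 4 h, a change of 6.77 ± 0.22. Lif, an IL-6 family cytokine, was expressed before treatment and rose by 4.07 ± 0.056, from 30.2, 32 and 28.9 CPM at 0 h to 463, 518 and 544 CPM at 4 h. Tnf had 1 count in all at 0 h and 236 at 4 h, a ratio of 286 with an exact 95% counting interval of 50.9 to 11400. Ctf1, the IL-6 family cytokine cardiotrophin-1, was the only tested member called lower, at −0.84 ± 0.15. These counts depended on the setting: 18 were higher and 4 lower with total counts alone. With limma on the deposited TPM 14 were higher and 3 lower of 23. Il1b itself had too few reads to test. Of 20 receptors, STATs and SOCS genes of the IL-6 family 14 were higher, with a median of 0.96: the oncostatin M receptor Osmr rose by 2.67 ± 0.045 and the signalling inhibitors Socs3 and Socs1 by 2.45 ± 0.051 and 2.19 ± 0.12. Stat3, a transcription factor downstream of gp130, rose by 1.64 ± 0.043, but it overlaps Stat5a on the other strand, itself called higher.

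Receptor and proximal signalling genes of IL-1 rose in part. Of 23 tested, 10 were higher and 13 not called, with a median of 0.56. That median was 0.32 without NT 0 h replicate 3 and 0.27 with total counts alone. With limma on the deposited TPM it was 0.20, and 0.06 when low genes were kept. Each of these settings gave 10 members higher, and all but the first gave 1 lower. Il1r1, the signalling receptor, measured 32, 31.9 and 30.8 CPM at 0 h and 82.3, 93.4 and 81.3 CPM at 4 h, and Il1rap, its accessory chain, 84.4, 88.8 and 84.3 CPM at 0 h and 275, 271 and 249 CPM at 4 h, with log2 changes of 1.44 ± 0.054 and 1.63 ± 0.045. All 3 libraries at 4 h lay above all 3 at 0 h for both. Myd88, the adaptor, rose by 2.17 ± 0.044 and Irak2, an IRAK kinase family member, by 1.32 ± 0.066. Myd88 overlaps Acaa1a, which was also called higher. The largest change of the list was that of Il1rl1, the IL-33 receptor ST2, with 49.7, 49 and 42.6 CPM at 0 h and 922, 858 and 850.4 CPM at 4 h, followed by Il18rap, the IL-18 receptor accessory chain, at 3.51 ± 0.11, and Map3k8, a kinase upstream of MEK, at 3.45 ± 0.098.

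NFκB genes rose both among the subunits and among the inhibitors. Of 11 subunits and IκB kinase genes 8 were higher, with a median of 1.08. The number higher was 6 with upper-quartile scaling, with total counts alone and with limma on the deposited TPM. Nfkb1, encoding p105/p50, measured 134, 129 and 126 CPM at 0 h and 739, 729 and 773 CPM at 4 h, a change of 2.53 ± 0.042, Relb rose by 2.23 ± 0.057, Nfkb2 by 1.74 ± 0.048 (it overlaps Psd, also called higher) and Rela, which encodes p65, by 1.08 ± 0.042. Of 23 inhibitors and ubiquitin feedback genes 15 were higher, with a median of 1.13. Nfkbia, which encodes IκBα, measured 41, 43.5 and 43.9 CPM at 0 h and 252, 252 and 274 CPM at 4 h, and Tnfaip3, the deubiquitinating enzyme A20, 33.2, 34.1 and 28.9 CPM at 0 h and 339, 324 and 342 CPM at 4 h. Nfkbiz and Bcl3, nuclear IκB proteins, rose by 3.56 ± 0.048 and 4.83 ± 0.096, Traf1, a TNF receptor-associated factor, by 5.14 ± 0.25 and Birc3, a ubiquitin ligase, by 2.55 ± 0.07. At 4 h the mRNA of every subunit and inhibitor named here lay above its 0 h range in all 3 libraries. Among 12 genes that control the decay of cytokine mRNA 5 were higher, led by Zc3h12a (Regnase-1), an endonuclease, at 5.08 ± 0.064, and Arid5a, which stabilises Il6 mRNA, at 2.22 ± 0.062. Zfp36 (tristetraprolin), which destabilises AU-rich transcripts, rose by 1.45 ± 0.057.

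Prostaglandin genes were higher in 9 of 14 tested, and Hpgd was the member called lower. Ptgs2, the inducible cyclooxygenase COX-2 (ENSMUSG00000032487, chromosome 1, 150100031 to 150108227), measured 49.1, 47.9 and 48.9 CPM at 0 h and 795, 889 and 848 CPM at 4 h, a log2 change of 4.12 ± 0.048. Ptges, the terminal prostaglandin E synthase, measured 2.85, 3.08 and 3.16 CPM at 0 h and 10.7, 11.7 and 11.5 CPM at 4 h, and Pla2g4a, the phospholipase that releases arachidonate, 62.4, 65.3 and 63.2 CPM at 0 h and 139.9, 143 and 131 CPM at 4 h. Each rose, by 1.90 ± 0.12 and 1.11 ± 0.045. The prostaglandin E2 receptor Ptger4 rose by 2.60 ± 0.074 and the prostaglandin transporter Slco2a1 by 2.82 ± 0.056. Of 13 genes for nitric oxide and arginine 4 were higher and Nos1, the neuronal synthase, was lower on few counts, and the sign of their median depended on the scaling, from 0.14 to −0.15 with total counts alone, which called 4 lower. Leaving out NT 0 h replicate 1 or 2 or NT 4 h replicate 1 gave 2 lower. Slc7a2, a cationic amino acid transporter that brings in arginine, measured 86.9, 93.6 and 84.7 CPM at 0 h and 1137, 1224 and 1206 CPM at 4 h, and Gch1, which makes the Nos2 cofactor tetrahydrobiopterin, rose by 2.35 ± 0.05. Ass1, which regenerates arginine, was not called, at 87.1, 84.8 and 84.4 CPM at 0 h and 60.6, 62.2 and 63 CPM at 4 h.

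Proteases of the matrix did not move as a block. Of 16 metalloproteinases and their inhibitors (TIMPs) 7 were higher (43.8%) and 2 lower (12.5%), against 16.4% and 13.1% of all tested genes. The sign of their median depended on the scaling, from 0.25 to −0.04 with total counts alone. Mmp13, the main collagenase of mouse cartilage (ENSMUSG00000050578, chromosome 9, 7272514 to 7283331), measured 0.680, 0.665 and 0.356 CPM at 0 h and 17.9, 15.2 and 17.9 CPM at 4 h, a log2 change of 4.87 ± 0.16. Mmp3, stromelysin-1, measured 0.0850, 0.125 and 0.311 CPM at 0 h and 3.12, 2.97 and 3.06 CPM at 4 h, and Mmp10, stromelysin-2, 0.255, 0.333 and 0.712 CPM at 0 h and 1.87, 1.44 and 2.04 CPM at 4 h. These 3 neighbouring genes rose from low levels. Mmp15, a membrane-bound metalloproteinase, fell by 2.12 ± 0.084 on the log2 scale, from 28.2, 25.7 and 27.4 CPM at 0 h to 6.29, 6.69 and 5.7 CPM at 4 h, and Mmp16 by 0.88 ± 0.06. Timp1, a secreted inhibitor, was far more abundant, at 319 ± 4.29 TPM at 0 h and 1589 ± 33.4 TPM at 4 h. Of 10 ADAMTS proteases 5 were higher (50.0%) and 1 lower (10.0%), and 2 were higher with total counts alone. The aggrecanases among them moved in opposite directions. Adamts4 rose by 2.20 ± 0.071, from 8.2, 8.11 and 8.54 CPM at 0 h to 37.8, 37.1 and 39.5 CPM at 4 h, while Adamts5 fell by 0.65 ± 0.046, from 122, 134 and 119 CPM at 0 h to 78.6, 79.6 and 80.4 CPM at 4 h. Adamts6 was higher by 1.39 ± 0.048, and Adamts1 was not called, at 0.39 ± 0.045. Of 6 plasminogen activation genes 4 were higher: Plau, the urokinase, by 1.57 ± 0.046, its receptor Plaur by 2.25 ± 0.048, and the inhibitor Serpinb2 (PAI-2) by 6.61 ± 0.19. Timp1 overlaps Syn1 on the other strand.

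**Figure D2:**
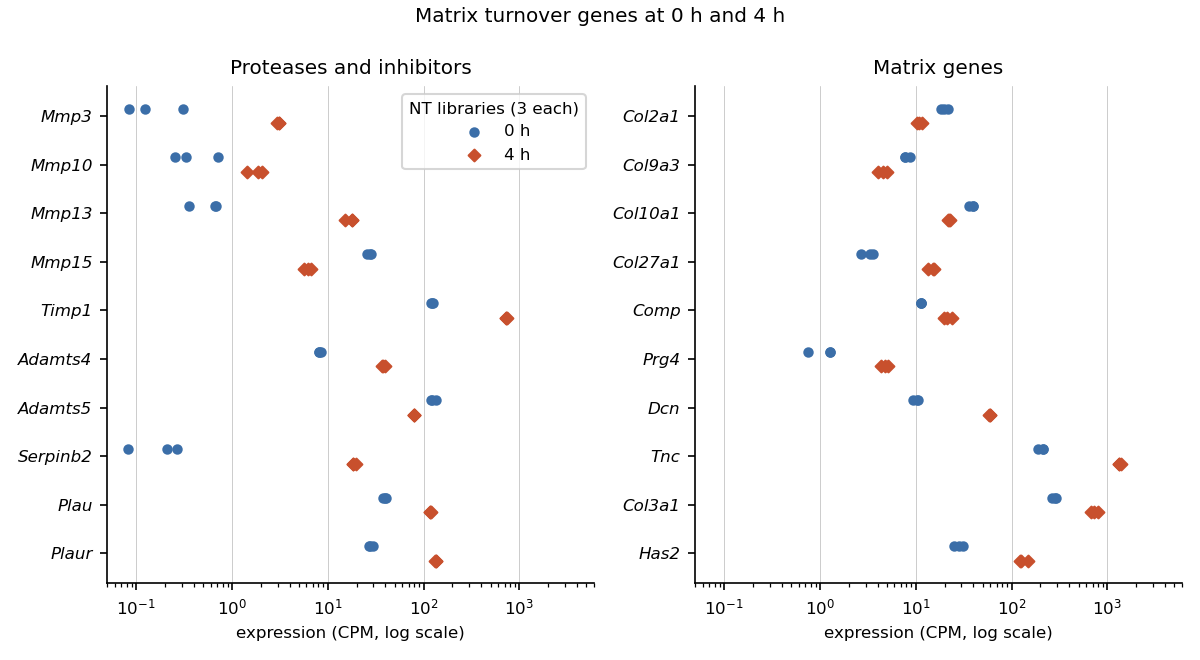
Level of 20 matrix turnover genes in each NT library (CPM, log axis), circles at 0 h and diamonds at 4 h. Mmp13, Adamts4, Serpinb2, Tnc and Has2 lie higher at 4 h in all 3 libraries, and Mmp15, Adamts5, Col2a1, Col9a3 and Col10a1 lie lower.

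Cartilage matrix genes divided evenly, with 5 of 13 tested higher and 5 lower (38.5% each), against 16.4% and 13.1% of all tested genes. Col2a1, the type II collagen of cartilage, measured 21.9, 18.1 and 19.7 CPM at 0 h and 10.3, 10.8 and 11.7 CPM at 4 h, a fall of 0.86 ± 0.084 on the log2 scale. Col9a3, a chain of the type IX collagen on its fibrils, fell by 0.81 ± 0.12, Col10a1, the hypertrophic type X collagen, by 0.78 ± 0.06 and Hapln1, the link protein of aggrecan and hyaluronan, by 0.69 ± 0.082. Matn1, matrilin-1, was also called lower, on few counts. Higher were Cilp2, an interterritorial matrix protein, by 3.51 ± 0.12, Col27a1, a fibrillar collagen, by 2.19 ± 0.11, Prg4, the lubricin of joint surfaces, by 2.09 ± 0.19 and Comp by 0.93 ± 0.08, and Col11a2 was the last of the higher members. Prg4 overlaps Tpr on the other strand, a far more abundant gene that was not called. Among 10 small leucine-rich proteoglycans 4 were higher and 2 lower, and their median turned from 0.20 to −0.09 with total counts alone. The number lower was 1 without NT 0 h replicate 2, NT 4 h replicate 2 or with DESeq2, and 0 without NT 4 h replicate 3. Dcn, decorin, measured 9.39, 10.4 and 10.5 CPM at 0 h and 59.7, 57.5 and 60.2 CPM at 4 h and Prelp rose by 1.23 ± 0.046, and 4 were not called. Of 35 collagens and matrix genes of fibroblasts 16 were higher (45.7%) and 19 not called. Tnc, the injury-associated glycoprotein tenascin-C, measured 215, 212 and 191 CPM at 0 h and 1321, 1322 and 1374 CPM at 4 h, Col5a3 rose by 2.16 ± 0.072 and Col3a1 by 1.39 ± 0.047. The type I collagen gene Col1a1 was not called, at a log2 value of −0.33 ± 0.044. Hyaluronan genes were higher in 7 of 12 (58.3%) and lower in 2 (16.7%), the lower share near the 13.1% of all tested genes. Has2, a hyaluronan synthase, rose by 2.25 ± 0.065, Tnfaip6 (TSG-6), which modifies hyaluronan, by 2.28 ± 0.12 and Cd44, its receptor, by 1.24 ± 0.039, while the hyaluronidase Hyal1 fell by 1.51 ± 0.099 and the hyaluronan receptor Hmmr by 0.99 ± 0.047. Hyal1 overlaps Naa80 on the same strand, and that gene was also called lower. Hmmr is also a member of the mitosis list, where 21 of 37 tested genes were lower. Of 15 skeletal transcription factors 6 were higher (40.0%) and 2 lower (13.3%), the lower share near the 13.1% of all tested genes. Runx1, a regulator of chondrocyte and blood cell fate, rose by 1.42 ± 0.044 and Nkx3-2, a repressor in the chondrocyte lineage, fell by 1.37 ± 0.18.

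Transcription factor genes of the early response were still raised at 4 h. Of 15 AP-1 family genes 11 were higher, with a median of 1.28. Fosl2 measured 142, 146 and 135 CPM at 0 h and 731, 748 and 761 CPM at 4 h and Fosl1 rose by 1.5 ± 0.046, Fos by 1.25 ± 0.073 and Batf2, an interferon-inducible member, by 4.58 ± 0.11. Junb rose by 2.23 ± 0.053. Fosl1, Batf2 and Junb overlap Ccdc85b, Arl2 and Prdx2 on the other strand, of which Ccdc85b was also called higher. Of 23 EGR, NR4A, IER and similar genes 20 were higher, with a median of 1.34. The orphan nuclear receptors Nr4a1 and Nr4a2 rose by 2.42 ± 0.056 and 2.48 ± 0.068, Ier3, a survival-associated early gene, by 3.27 ± 0.052 and Myc by 1.45 ± 0.044, while Egr1 was not called, at 302, 306 and 299 CPM at 0 h and 476, 359.5 and 482 CPM at 4 h, except without NT 4 h replicate 2. Among 18 MAP kinase phosphatases and Sprouty-type inhibitors 9 were higher and 1 lower: Errfi1, which inhibits the EGF receptor, rose by 2.79 ± 0.044, Dusp5, an ERK phosphatase, by 2.1 ± 0.059 and Dusp6, another, by 1.52 ± 0.043, while Dusp4 fell by 0.88 ± 0.10.

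Interferon-stimulated genes rose without exception on their list, which was chosen with earlier results of these libraries known. All 48 tested were called higher, against 16.4% of all tested genes, with a median log2 change of 2.43 and summed levels of 5717–6060 TPM at 0 h and 22070–22780 TPM at 4 h; with libraries scaled by their totals alone 46 were called. Ifit1, an inhibitor of viral translation, measured 153, 158 and 151 CPM at 0 h and 1824, 1791 and 1786 CPM at 4 h, a change of 3.55 ± 0.042. Mx1, an antiviral GTPase, measured 5.48, 5.53 and 4.14 CPM at 0 h and 355, 338 and 378 CPM at 4 h, and Gbp5, a guanylate-binding protein (ENSMUSG00000105504, chromosome 3, 142493978 to 142522344), 2.68, 3.24 and 2.67 CPM at 0 h and 244, 232 and 259 CPM at 4 h. No library at 4 h came near the 0 h range of these genes. Gbp2 rose by 4.94 ± 0.048, Cmpk2, a mitochondrial nucleotide kinase, by 4.27 ± 0.047 and Ifit3 by 3.76 ± 0.044. Irf1, a transcription factor of the interferon response, rose by 1.81 ± 0.052, and Isg15, a ubiquitin-like modifier, by 1.84 ± 0.044. Ifnb1, the type I interferon gene, was looked up after the values of these genes were seen and had too few reads for the test of the 6 libraries. Its counts were 4, 2 and 1 at 0 h, 76, 88 and 104 at 1 h, 38, 35 and 38 at 2 h, 15, 9 and 20 at 4 h, 16, 4 and 12 at 8 h and 3, 1 and 1 at 24 h. The 1 h libraries were thus the highest, and every 4 h library had more Ifnb1 counts than any 0 h library and fewer than any 2 h library. Of 20 genes for MHC class I presentation 12 were higher, with a median of 1.02. Nlrc5, the activator of MHC class I genes, rose by 2.01 ± 0.046 and the immunoproteasome subunits Psmb10 and Psmb8 by 2.98 ± 0.056 and 0.98 ± 0.042, while H2-K1, a class I heavy chain, was not called, at 2270.0, 2194 and 2185 CPM at 0 h and 2832, 2705 and 2820.0 CPM at 4 h. Among the sensors, 5 of 7 inflammasome genes were higher, led by Casp4 (caspase-11) at 3.82 ± 0.058, and 5 of 10 Toll-like receptor genes (3 with total counts alone), led by Tlr2, a receptor of bacterial lipopeptides, with 22.6, 22.1 and 23.2 CPM at 0 h and 542, 536 and 537 CPM at 4 h, and Tlr3, a receptor of double-stranded RNA, at 3.60 ± 0.053.

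**Figure D3:**
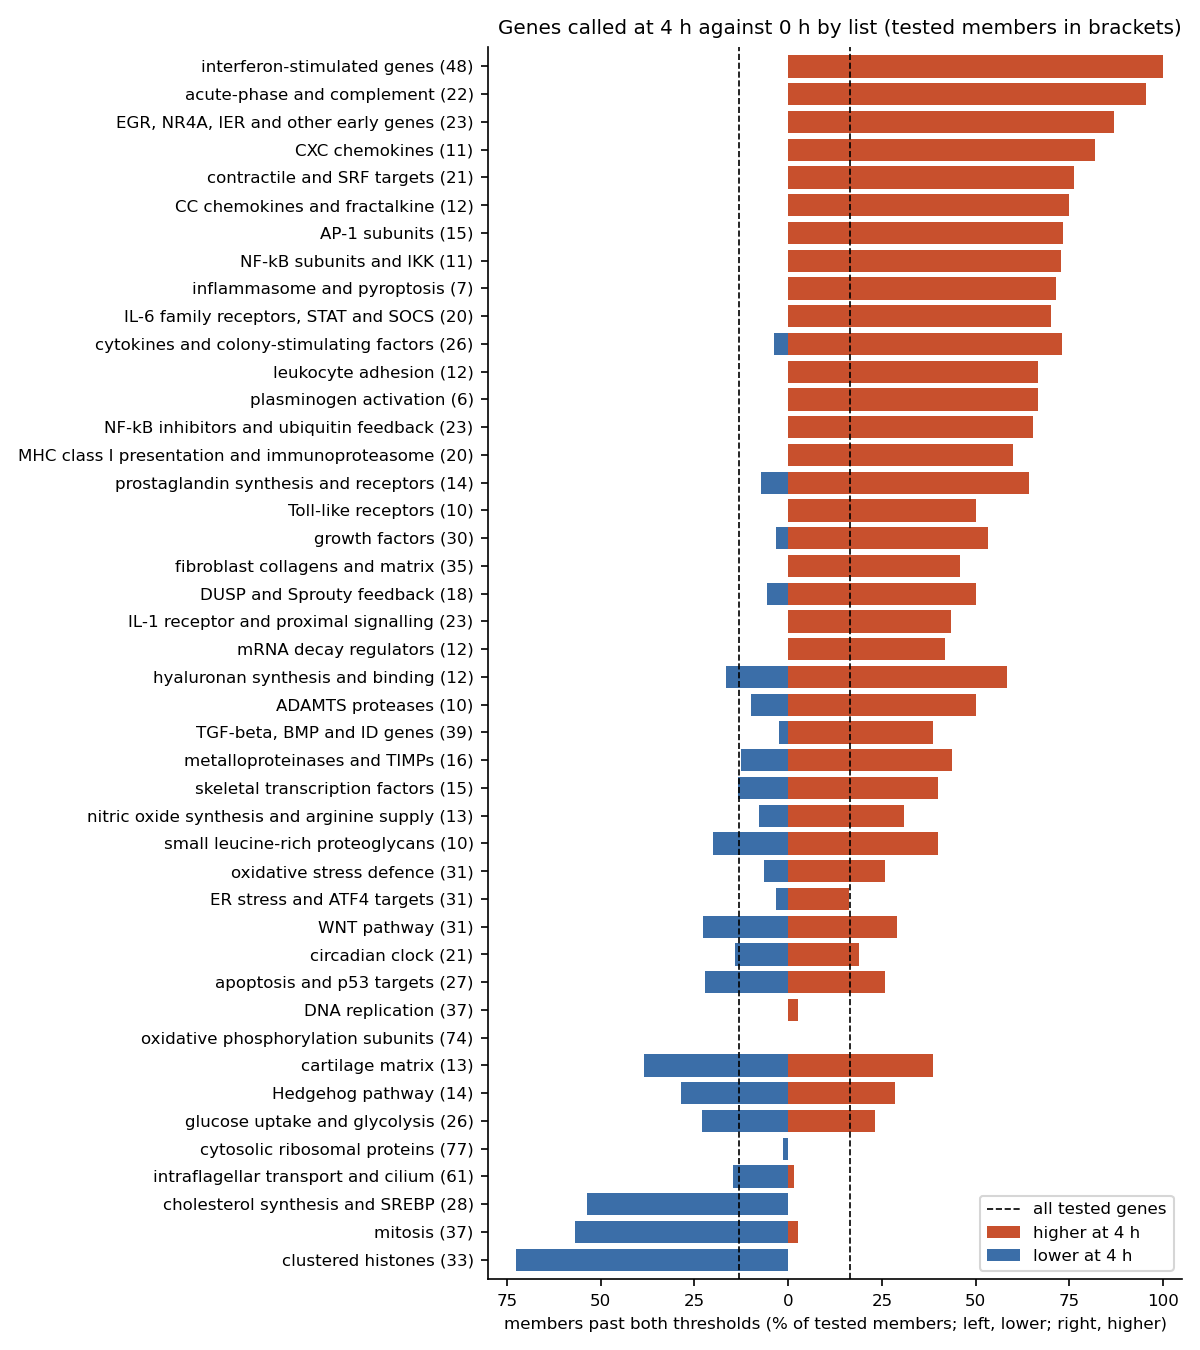
Share of the tested members of each of 44 gene lists called higher (right) or lower (left) at 4 h in NT cells, in percent, with dashed lines at the shares of all 15082 tested genes. Interferon-stimulated genes reach the full length on the right, clustered histones, mitosis and cholesterol genes extend farthest to the left, and oxidative phosphorylation genes show no bar.

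Acute-phase and complement genes were higher in 21 of 22 tested, with a median of 2.57. C3, the central complement component, measured 17.9, 15.4 and 15.3 CPM at 0 h and 120.2, 117 and 133 CPM at 4 h, a change of 2.92 ± 0.06, and Steap4, a metalloreductase, rose by 5.48 ± 0.12. Neighbouring genes of the same families often rose together: all 4 tested serum amyloid genes on chromosome 7 (46711998 to 46754313), all 5 tested Serpina3 genes on chromosome 12 (104112724 to 104414329), all 6 IFIT genes on chromosome 19 (34550694 to 34650009), and guanylate-binding protein genes on chromosomes 3 and 5, 5 of 5 and 6 of 6. Copies within these families are alike in sequence, so reads that fit several copies may be uncounted or placed on another copy. Leukocyte adhesion genes were higher in 8 of 12 tested. Vcam1, a ligand of leukocyte integrins, measured 11.5, 12.5 and 11 CPM at 0 h and 732, 696 and 708 CPM at 4 h, and Icam1 3.74, 3.33 and 3.6 CPM at 0 h and 147, 130.0 and 156 CPM at 4 h, with changes of 5.93 ± 0.055 and 5.34 ± 0.079. Selp, P-selectin, had 2 counts in all at 0 h and 102 at 4 h, a ratio of 61.8 with an exact 95% counting interval of 16.7 to 518.

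Growth factor genes were higher in 16 of 30 tested and lower in Fgf18 alone (at −2.12 ± 0.28), with a median of 0.62. Pdgfb, a mesenchymal mitogen, measured 0.765, 0.458 and 1.07 CPM at 0 h and 55.5, 48.9 and 55.6 CPM at 4 h, a change of 6.12 ± 0.12. Vegfa, the angiogenic factor, measured 31.9, 30.2 and 30.5 CPM at 0 h and 192, 218 and 198 CPM at 4 h and Fgf2 rose by 2.25 ± 0.047. The fatty acid-responsive Angptl4 rose by 5.40 ± 0.23 and Btc, a ligand of the EGF receptor, by 3.78 ± 0.11. Of 39 TGF-β, BMP and ID genes 15 were higher and Gdf6 was lower on few counts, and their median turned from 0.15 to −0.14 with total counts alone, which called 7 lower. Without NT 4 h replicate 1 or 3, 3 were called lower. Gdf5, a joint-forming BMP family member, rose by 3.24 ± 0.22, Grem1, a BMP antagonist, by 2.39 ± 0.05 and Tgfb1 by 1.35 ± 0.046. WNT pathway genes (9 higher, 7 lower of 31, and 13 lower with total counts alone) and Hedgehog pathway genes (4 higher, 4 lower of 14) had no common direction. Of all tested genes 16.4% were higher and 13.1% lower, against 29.0% and 22.6% of WNT and 28.6% each way of Hedgehog genes. Wnt11 rose by 2.81 ± 0.20 and Wnt5a by 0.94 ± 0.041, both ligands of non-canonical signalling, while Wnt9a, another ligand, fell by 1.75 ± 0.14 and the co-receptor Lrp6 by 1.14 ± 0.046. Ptch1, the Hedgehog receptor and target, measured 44.5, 46.6 and 43.9 CPM at 0 h and 169.6, 181 and 181 CPM at 4 h, a rise of 1.98 ± 0.046, whereas Smo, the transducer, fell by 0.69 ± 0.043 and Gli2 by 1.18 ± 0.15. Contractile genes were higher in 16 of 21 tested (10 with the deposited TPM), with a median of 0.88. Csrp1, a cytoskeletal LIM protein, rose by 1.67 ± 0.039, Acta2, smooth muscle actin, by 1.59 ± 0.041 and Vcl, vinculin, by 1.36 ± 0.041.

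Of 28 genes of cholesterol synthesis and its SREBP control 15 were lower and 13 not called, where 13.1% of all tested genes were lower, with a median of −0.62. Sqle, the squalene epoxidase (ENSMUSG00000022351, chromosome 15, 59315077 to 59331192), measured 106, 109.8 and 111 CPM at 0 h and 39.9, 35.7 and 34.9 CPM at 4 h, a change of −1.57 ± 0.05. Insig1, which retains SREBP in the endoplasmic reticulum and is itself an SREBP target, measured 84.5, 80.6 and 82.8 CPM at 0 h and 32.5, 28.6 and 31.7 CPM at 4 h. Insig1 fell by 1.42 ± 0.052 and Mvd, a mevalonate pathway decarboxylase, fell by 1.34 ± 0.058.

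Genes of mitosis were lower in 21 of 37 tested and higher in 1, with a median of −0.61 and 32 lower with total counts alone, whereas of 37 DNA replication genes 36 were not called, with 7 lower with total counts alone. Nusap1, a spindle protein, measured 124, 126 and 133 CPM at 0 h and 63.4, 60.7 and 59 CPM at 4 h, and Cdc25c, the phosphatase that activates CDK1, fell by 1.18 ± 0.072. Cdk1 and Plk1 themselves were not called, at −0.44 ± 0.041 and −0.54 ± 0.043, but both were called lower with total counts alone, at −0.73 and −0.83. Pttg1, securin, was the member called higher, by 1.46 ± 0.065. Replication genes such as Mcm2, a helicase subunit, at 440.2, 426 and 428 CPM at 0 h and 423, 407 and 416 CPM at 4 h, were not called. Mcm6, the replication gene called higher, at 0.86 ± 0.038, was not called when libraries were scaled by their totals alone. Of 33 clustered histone genes 24 were lower, with a median of −0.80, among them 8 of 10 and 12 of 18 in the 2 histone clusters of chromosome 13. Hist1h1c, a linker histone, measured 117, 114 and 119 CPM at 0 h and 56.9, 48.2 and 61.7 CPM at 4 h. Replication-dependent histone transcripts mostly lack poly(A) tails and the libraries were selected for poly(A), so these counts come from the part that was captured. Targets of p53 were among the fallers: Trp53inp1, a stress-induced regulator, measured 483, 528 and 523 CPM at 0 h and 197, 193 and 188 CPM at 4 h, and Ccng1 fell by 1.15 ± 0.039, but Cdkn1a, the CDK inhibitor p21, was not called, at −0.35 ± 0.039, and neither was Mdm2, at −0.47 ± 0.04, although with total counts alone both were, at −0.64 and −0.76. Over the 27 apoptosis and p53 genes 7 were higher (25.9%) and 6 lower (22.2%), against 16.4% and 13.1% of all tested genes. The number lower was 12 with total counts alone. Tnfrsf1b, a TNF receptor, was among the higher genes, at 1.63 ± 0.047.

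Of 61 intraflagellar transport and cilium genes 9 were lower (13.1% of all tested genes were) and 1 higher, with a median of −0.28; with libraries scaled by their totals alone 30 were called lower. Wdr35, a subunit of the IFT-A complex, measured 106, 104 and 100.5 CPM at 0 h and 51, 48.1 and 46 CPM at 4 h, and Bbs7, a BBSome subunit, fell by 0.98 ± 0.056. Tmem67, a transition zone protein, was the member called higher, by 1.49 ± 0.058. Ift88, the gene targeted elsewhere in the series, measured 9.22, 8.73 and 9.38 CPM at 0 h and 5.84, 7.48 and 6.72 CPM at 4 h, a change of −0.44 ± 0.11 that did not pass the fold threshold (adjusted p = 0.000571, edgeR). In the IFT88siRNA cells it measured 2.61, 2.91 and 2.84 CPM at 0 h, below all NT libraries.

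In edgeR's test none of 74 oxidative phosphorylation genes passed both thresholds, with 4 higher and 36 lower at an unadjusted p under 0.05, and DESeq2 also called 0. Their median of −0.10 was lower than that of all tested genes, and so was the −0.14 of 77 ribosomal protein genes, of which Rps27l, a p53 target, was called lower. Glucose uptake and glycolysis genes were higher in 6 of 26 and lower in 6 (23.1% each), against 16.4% and 13.1% of all tested genes. Hk2, hexokinase 2, measured 17.8, 15.7 and 16.3 CPM at 0 h and 183, 201 and 201 CPM at 4 h, and Slc2a6, a lysosomal hexose transporter, and Pfkfb3, a regulator of glycolytic flux, rose by 3.26 ± 0.08 and 2.82 ± 0.069, while Pdk1, an inhibitor of pyruvate dehydrogenase, fell by 1.09 ± 0.081. Of 31 oxidative stress genes 8 were higher (25.8%) and 2 lower (6.45%), and their median turned from 0.22 to −0.07 with total counts alone. Sod2, the mitochondrial superoxide dismutase, measured 37.6, 40.3 and 36.8 CPM at 0 h and 216, 214 and 232 CPM at 4 h, and Mt2 23, 23.1 and 22.6 CPM at 0 h and 272, 278 and 266 CPM at 4 h. Hmox1, heme oxygenase 1, rose by 0.97 ± 0.043. ER stress and ATF4 target genes were higher in 5 of 31 (3 with total counts alone) and lower in Ddit4 (−1.01 ± 0.048), an mTORC1 inhibitor, against the 16.4% and 13.1% of all tested genes. Clock genes were higher in 4 of 21 (19%) and lower in 3 (14.3%), shares near the 16.4% and 13.1% of all tested genes. Beside Dbp, Tef, its relative, fell by 1.38 ± 0.044 and Per3 by 1.17 ± 0.057, while Nfil3, a repressor of the same target sites, rose by 2.19 ± 0.054 and Per1 by 0.94 ± 0.058.

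Among genes that the annotation does not class as protein coding, Cxcl11, annotated as a polymorphic pseudogene, measured 0.425, 0.333 and 0.400 CPM at 0 h and 99.9, 78.1 and 97.8 CPM at 4 h, a change of 7.87 ± 0.14. Gm16685, an antisense transcript that overlaps Il7, rose by 5.74 ± 0.23 while Il7 was not called. Ifi203-ps, AW112010 and Gbp11 followed, at 5.60 ± 0.13, 5.58 ± 0.28 and 4.81 ± 0.13. The largest falls were those of Ptprv at −2.41 ± 0.075, Gm48898 at −2.34 ± 0.084, Gm3716 at −1.76 ± 0.12, B130024G19Rik at −1.65 ± 0.19 and Gm26737 at −1.50 ± 0.096. B130024G19Rik and Gm26737 overlap Nr2f2 and Rnf26 on the other strand, and both of those genes were also called lower. Gm23935, a short locus of the microRNA class, lies inside Zc3h7a on the other strand, and Zc3h7a was itself called higher, from a mean of 118 to 210.1 CPM. Gm23935 was among the 10 largest TPM gains, from 4113 ± 312 to 6461 ± 2134 TPM, but its libraries spread widely, at 95.6, 89 and 65.7 CPM at 0 h and 142, 163 and 251 CPM at 4 h, and its call was lost with the TPM values when low genes were kept.

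The 4 h time point was then set between its neighbours in the NT time course, in a fit of the 18 NT libraries. Of 16048 genes tested there, 691 (4.31%) were higher at 4 h than at both 2 h and 8 h and 292 (1.82%) lower than at both. Of the 2477 genes higher at 4 h than at 0 h 657 stood above both neighbours, and of the 1971 lower genes 244 stood below both. The same 4 h libraries chose these genes and were compared with the neighbours, so these counts are not separate support. Interferon-stimulated genes had their highest median at 4 h, and 31 of 48 stood above both neighbours. Their list medians against 0 h were −0.26 at 1 h, 0.20 at 2 h, 2.43 at 4 h, 1.56 at 8 h and 0.43 at 24 h. All of these medians share the 0 h libraries. When genes were ordered by the smaller of their differences from 2 h and 8 h, Tnfsf10, the death ligand TRAIL, came first, with 1.48 ± 0.399, 1.83 ± 0.339, 11.6 ± 3.13, 96.2 ± 2.34, 17.7 ± 2.58 and 2.38 ± 0.229 CPM (mean ± SD, n = 3) at 0, 1, 2, 4, 8 and 24 h. Its log2 differences were 3.06 ± 0.12 (SE) from 2 h and 2.45 ± 0.11 from 8 h. Cd274, the checkpoint ligand PD-L1, went through 6.51 ± 1.13, 4.67 ± 0.789, 19.1 ± 6.33, 149 ± 9.11, 32.9 ± 1.67 and 9.31 ± 0.748 CPM (mean ± SD, n = 3) at 0, 1, 2, 4, 8 and 24 h, and Gbp5 through 2.85 ± 0.327, 15.1 ± 0.696, 21.9 ± 2.24, 245 ± 13.2, 59 ± 5.41 and 13.2 ± 1.13 CPM (mean ± SD, n = 3) at 0, 1, 2, 4, 8 and 24 h. Sp140, Gm4841, Inpp1, Cmpk2, Rgs16, Hcar2 and Gbp2b completed the first 10, and their smaller difference was 1.85 to 2.24 on the log2 scale. Nos2 also stood above both, with means of 0.0141 ± 0.0244, 0.146 ± 0.0150, 16.7 ± 8.46, 349.8 ± 37.1, 104 ± 6.11 and 113 ± 6.2 CPM (mean ± SD, n = 3) at 0, 1, 2, 4, 8 and 24 h.

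Other lists had their highest medians, again against the same 0 h libraries, at other times. Early response genes had medians of 2.66 at 1 h, 1.91 at 2 h, 1.35 at 4 h and 0.31 at 8 h, and Nr4a1 fell from a mean of 1885 CPM at 1 h to 86.8 CPM at 4 h. The 25 acute-phase and complement genes tested over the 18 NT libraries, 3 more than over the 6, had medians of 1.03 at 2 h, 1.96 at 4 h, 2.75 at 8 h and 3.46 at 24 h, and Lcn2 stood at 0.470 ± 0.0858, 0.673 ± 0.153, 4.62 ± 2.0, 156 ± 10.9, 330.3 ± 15.4 and 1199 ± 82.4 CPM (mean ± SD, n = 3) at 0, 1, 2, 4, 8 and 24 h. Cxcl1 was highest at 1 h, with 2.29 ± 0.305, 1418 ± 62.3, 734 ± 43, 673 ± 27.9, 544 ± 24.6 and 687 ± 31.7 CPM (mean ± SD, n = 3) at 0, 1, 2, 4, 8 and 24 h. Cholesterol genes had medians of 0.86 at 1 h and 0.43 at 2 h before the −0.62 of 4 h, and 5 of 28 stood below both neighbours at 4 h. Sqle followed that course, with 108 ± 3.07, 206 ± 6.45, 145 ± 8.14, 36.8 ± 2.87, 79.5 ± 3.28 and 96.8 ± 1.8 CPM (mean ± SD, n = 3) at 0, 1, 2, 4, 8 and 24 h.

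**Figure D4:**
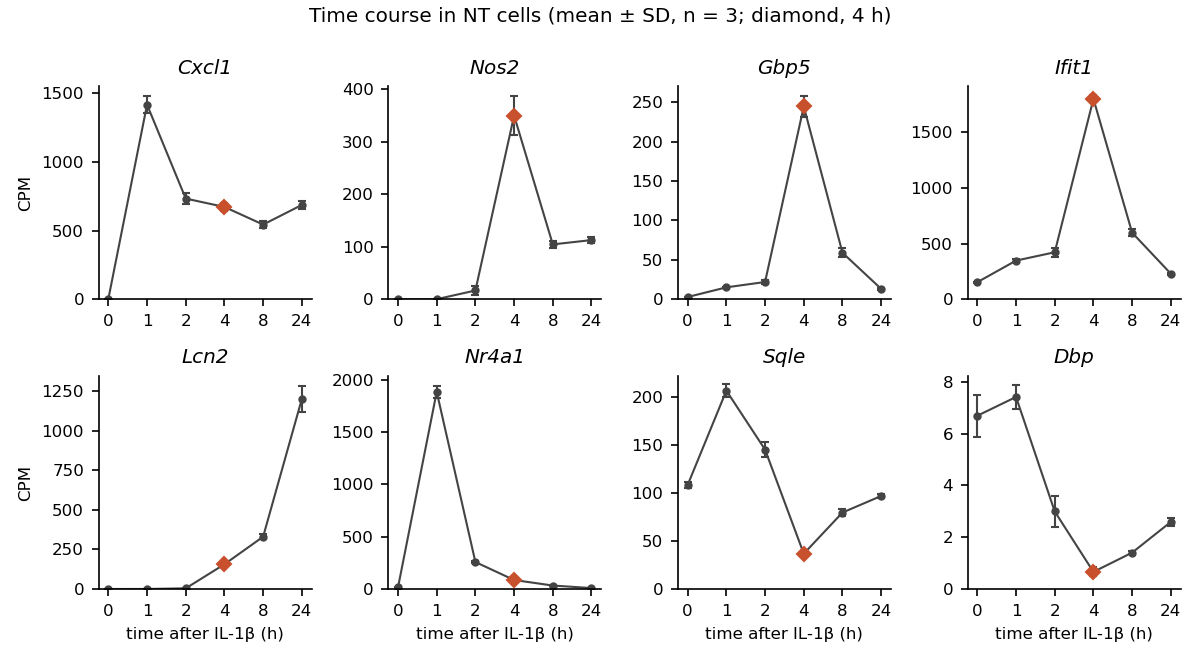
Mean level ± SD (CPM, 3 NT libraries each) of 8 genes at 0, 1, 2, 4, 8 and 24 h of IL-1β, with a diamond at 4 h and time points spaced evenly. Nos2, Gbp5 and Ifit1 are highest at 4 h, Cxcl1 and Nr4a1 at 1 h and Lcn2 at 24 h, and Sqle and Dbp are lowest at 4 h.

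The same contrast in the IFT88siRNA cells shares no library with the NT contrast. Its calls came from a fit of 12 libraries that included the NT ones, so the estimate of spread was shared. Among the 15767 genes of that fit 2543 were called higher and 2208 lower in IFT88siRNA. Of the 2477 genes called higher in NT 2184 (88.2%, and 85.9% of the 2543 IFT88siRNA calls) were also called higher there, and of the 1971 lower genes 1576 (80.0%, and 71.4% of 2208) were also lower. Median changes were 1.21 in NT and 1.17 in IFT88siRNA for the higher genes, and −0.90 and −0.89 for the lower ones. These genes were chosen by their change in NT, which favours a larger NT median, so the medians do not compare the siRNA groups evenly. The difference between the changes was tested directly, in an interaction fit of the 12 libraries. Of 15767 genes 67 (0.425%) passed both thresholds in edgeR's test, 57 with a lower log2 change in IFT88siRNA and 10 with a higher one, and DESeq2 gave 64. Leaving out 1 library gave 41 to 124, the lowest without NT 0 h replicate 1 and the highest without IFT88siRNA 4 h replicate 2. At an unadjusted p under 0.05 there were 2024. For Cxcl1 and Cxcl10 the differences of 0.21 ± 0.17 and −0.03 ± 0.086 (SE) did not pass, which does not show that the changes were equal. Nr3c2, the mineralocorticoid receptor, measured 3.78, 3.99 and 4.22 CPM at 0 h and 10.8, 8.49 and 10.9 CPM at 4 h in NT and 6.9, 6.84 and 6.11 CPM at 0 h and 5.4, 6.95 and 4.87 CPM at 4 h in IFT88siRNA. Its change was thus 1.33 on the log2 scale in NT and −0.21 in IFT88siRNA, a difference of −1.54 ± 0.18 (SE, adjusted p = 3.08e-05, edgeR).

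**Figure D5:**
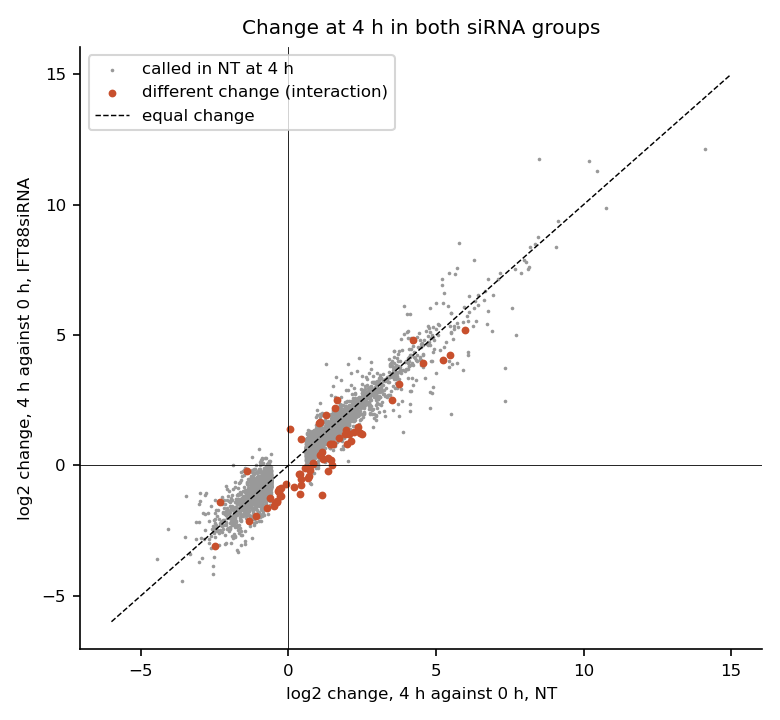
Log2 change from 0 h to 4 h in NT cells (x axis) and in IFT88siRNA cells (y axis) for genes called in NT (grey) and for the 67 genes whose change differed between the siRNA groups (orange), with a dashed line of equal change. Most points lie along the line, and most orange points lie below it.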

How the data were processed

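RNA was poly(A) selected and sequenced as read pairs, and all libraries were multiplexed over 3 lanes. The authors aligned reads to GRCm38 with HISAT2 2.1.0 and counted them per gene with featureCounts of Subread 1.6.3. Its settings name no strand, so reads from overlapping genes on opposite strands were not told apart by strand. The deposited count table was not normalised. The authors also deposited TPM values from Salmon 0.9.1, used here only for levels between genes and as an alternative.

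Columns were matched to labels by name, and 0 columns of other samples were found. Counts of the 6 libraries were tested with edgeR 4.0.16 (R 4.3.3), using filterByExpr, TMM factors (1.10–1.11 at 0 h and 0.901–0.907 at 4 h), a quasi-likelihood F-test and Benjamini-Hochberg adjustment. A gene was called at an adjusted p under 0.05 and a fold change over 1.5. Of 53421 genes listed, 28699 had a count and 15082 passed the filter. The SE was obtained by dividing the size of a log2 fold change by the root of its F value. Genes were compared with 2 h and 8 h in a fit of the 18 NT libraries, and the difference between siRNA groups was an interaction term over 12 libraries. Scripts were tested on simulated data. DESeq2 1.42.0 and limma 3.58.1 on log2(TPM + 1) were alternatives, beside other scalings, filters, library sets and leaving out each library. Scaling by total counts was added after seeing the data, as was the ISRE motif.

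The comparison and the gene lists were chosen with earlier results of these data known. Named genes are the 12 largest rises and falls with non-overlapping libraries and a mean of at least 50 counts, the 10 largest TPM gains and losses, the first 4 and the 3 most changed members of each list in either direction, cell type markers, the 5 largest noncoding rises and falls, the 5 largest interaction differences in each direction and the 10 clearest genes above both neighbouring times; not all of them are printed, and a few are not reported here. Ifnb1, further cluster members, overlapping genes and Fgf18, Gdf6, Matn1 and Nos1 were named after their values were seen. Promoters came from RefSeq (GRCm38.p6), matched by symbol. Intervals of count ratios cover counting error only.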

Additional observations from a re-analysis of the deposited data

Results flagged for a closer look

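The change from 0 h to 4 h differed between NT and IFT88siRNA cells for 67 genes by a direct test (edgeR quasi-likelihood interaction over 12 libraries, adjusted p under 0.05 and a difference over 1.5-fold), and for 41 to 124 when 1 library was left out. The 5 with the largest differences in each direction are given as the log2 change in IFT88siRNA minus that in NT, with the range over 16 alternatives.

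Lower changes in IFT88siRNA that passed under all 16 alternatives were those of Nr3c2, the mineralocorticoid receptor, at −1.54 (range −1.70 to −1.43), Ptgfr, the prostaglandin F receptor, at −1.45 (−1.67 to −1.20), Steap4, a metalloreductase, at −1.24 (−1.34 to −1.11), and H19, an imprinted noncoding RNA, at −1.23 (−1.32 to −1.14). Ptgfr measured 1.44, 2.91 and 2.49 CPM at 0 h and 7.49, 5.45 and 6.05 CPM at 4 h in NT, and 5.19, 4.61 and 5.15 CPM at 0 h and 5.4, 5.33 and 4.41 CPM at 4 h in IFT88siRNA. Steap4 measured 0.934, 0.789 and 0.755 CPM at 0 h and 37, 35 and 39.5 CPM at 4 h in NT, and 1.96, 2.38 and 1.77 CPM at 0 h and 36, 41.4 and 38.7 CPM at 4 h in IFT88siRNA. H19 measured 1.53, 1.66 and 1.51 CPM at 0 h and 3.8, 4.15 and 4.82 CPM at 4 h in NT, and 2.68, 2.3 and 2.52 CPM at 0 h and 2.56, 2.89 and 3.22 CPM at 4 h in IFT88siRNA. For Nr3c2, Ptgfr, Steap4 and H19 every IFT88siRNA library lay above every NT library at 0 h, so part of each difference lies there. At 4 h the siRNA groups overlapped for Steap4, and for the others every IFT88siRNA library lay below every NT library. Gm23935, the short locus inside Zc3h7a, differed by −2.28 (−2.65 to −1.22), with 132, 631 and 162 CPM in the IFT88siRNA libraries at 0 h, and was not called with DESeq2 or without the third replicate of either NT group.

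Higher changes in IFT88siRNA were found for Bc1, a neuronal cytoplasmic RNA, at 1.19 (1.07 to 1.36), which was not called without the third replicate of either NT group, and for Atg9b, an autophagy protein, at 0.91 (0.65 to 1.16), which was called in 6 of 16 alternatives. S1pr3, a sphingosine 1-phosphate receptor, differed by 0.84 (0.69 to 0.97) and was called in 11. Atf3, a stress-induced ATF/CREB factor, differed by 0.64 (0.53 to 0.70) and was not called without NT 4 h replicate 2. Hmga1, a chromatin protein, differed by 0.61 (0.54 to 0.67) and was called in 12. Atf3 measured 23.6, 23.6 and 24.9 CPM at 0 h and 62.7, 49.5 and 62.7 CPM at 4 h in NT, and 12.3, 10.9 and 12 CPM at 0 h and 40.8, 45.1 and 47.5 CPM at 4 h in IFT88siRNA.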

How the results depend on the processing

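The counts of 2477 higher and 1971 lower genes moved by over 1.5 times under a few settings. Without the fold threshold 4985 genes were higher and 5007 lower at 4 h than at 0 h, 1833 stood above and 1444 below both 2 h and 8 h, and 302 had another change under IFT88siRNA. With limma on log2(TPM + 1) 1643 were higher and on log2(TPM + 0.1) 3050 lower, where quantifier, transform and test changed together. With total counts alone 4026 were lower. Leaving out 1 library gave 2477 to 2546 higher and 1926 to 2015 lower genes. Leaving out 1 library gave 41 to 124 genes with another change under IFT88siRNA, the lowest without NT 0 h replicate 1 and the highest without IFT88siRNA 4 h replicate 2, which held 65 of the 67. Of 203 genes named with values and called at 4 h, 200 passed both thresholds under every alternative, while Gm23935, Mcm6 and Ptgfr lost the call with total counts alone or with log2(TPM + 1) and no filter. Of the named genes not called, 11 were called under at least 1 alternative.

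Replicates with the same number were not shown to pair: their deviations from the group means correlated at −0.10, 0.015 and −0.08, and no 0 h library correlated best with the 4 h library of its own number. With the replicate block 2454 genes were higher and 1939 lower, and 60 had another change under IFT88siRNA, all of them among the 67.

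With 3 libraries a group, all from 1 line, the tests measure only the spread between these libraries. Genes with few counts have imprecise ratios: 5 of the higher genes had no count at 0 h and 45 had 1 to 3, and 4 of the lower genes had 3 or fewer at 4 h. A gene that was not called is not shown to be unchanged.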
